A study of Mus musculus with 2 samples.

Results

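The genes described here are 5 matrix metalloproteinases (Mmp2, Mmp3, Mmp12, Mmp13 and Mmp14), the aggrecanases Adamts4 and Adamts5, and the tissue inhibitors of metalloproteinases Timp1, Timp2 and Timp3. They are 10 of the 32285 genes in the count tables and were taken by symbol, each symbol matching a single gene. The data were 2 single-cell RNA sequencing libraries of the temporomandibular joint (TMJ) of wild-type C57BL/6 mice (C57BL/6J in the methods) aged 8 to 10 weeks, female per the methods. Mice of the PBS group received 10 µL of phosphate-buffered saline in each TMJ, and mice of the CFA group received the same volume of complete Freund's adjuvant at 5 mg/mL, an oil emulsion of killed mycobacteria that inflames the joint. Tissue was collected 3 weeks later with n = 3 given in the methods, without saying whether mice or joints were counted, and each group is 1 library, so that a difference between the libraries has no replicate check. The digest pooled bone of the condyle and the temporal bone with the disc, ligament and muscle, and magnetic beads then depleted CD45+ leukocytes, a gate that sets the share of every leukocyte class. Kit version and digestion enzymes are given differently in the sample labels and in the methods, and which applies was not settled here.

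Matrix metalloproteinases are zinc enzymes that cut the proteins of the extracellular matrix outside the cell. Mmp13 is the main collagenase of rodent cartilage and bone, Mmp3 (stromelysin 1) cuts proteoglycans and activates other pro-enzymes, Mmp12 is the macrophage elastase, Mmp2 is a gelatinase, and Mmp14 is a membrane-bound collagenase that activates pro-Mmp2 at the cell surface. Adamts4 and Adamts5 cut aggrecan, the large proteoglycan that gives cartilage its stiffness. TIMPs bind the active site of these enzymes: Timp2 also takes part in the activation of pro-Mmp2 by Mmp14, Timp3 is held in the matrix and is the TIMP that blocks aggrecanases, and Timp1 is induced by inflammatory cytokines. In arthritic joints collagenase, stromelysin and aggrecanases are studied as the enzymes of cartilage loss. Several of their genes carry a binding site of AP-1, the Fos and Jun transcription factor, close to the start of transcription.

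Promoter stretches are shown for Mmp3, Mmp12 and Mmp13, the members with a window that held the AP-1 heptamer described next. Windows of 250 bases before the RefSeq start sites were searched for the AP-1 heptamer TGACTCA and its reverse complement TGAGTCA, which covers both strands, in a RefSeq promoter table of build GRCm38.p6. For 7 members the table held 8 windows, and 3 of these contained the heptamer. The stretches below are the 80 bases before the start site, on the gene's strand, with the heptamer in capitals.
Mmp13: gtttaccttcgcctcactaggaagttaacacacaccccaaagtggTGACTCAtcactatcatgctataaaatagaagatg
Mmp3: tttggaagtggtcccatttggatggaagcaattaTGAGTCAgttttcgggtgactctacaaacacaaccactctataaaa
Mmp12, downstream start: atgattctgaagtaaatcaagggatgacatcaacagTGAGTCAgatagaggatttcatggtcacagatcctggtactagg
The Mmp13 stretch lies at chr9:7272434-7272513 and its heptamer begins 35 bases before the start. The Mmp3 stretch lies at chr9:7445742-7445821, with the heptamer 46 bases before the start. Mmp12 has an upstream start whose window holds no heptamer, and a downstream start whose stretch, at chr9:7347294-7347373, holds it 44 bases before. The windows of Mmp14, Timp1, Timp2 and Timp3 did not contain these letters. Over all 32851 windows, 4.46% held the heptamer within 250 bases and 1.49% within the 80 bases before the start, so a match is a description of the sequence and not a measured site. The table had no entry for Mmp2, Adamts4 and Adamts5. Mmp3, Mmp12 and Mmp13 are neighbours on chromosome 9 of GRCm38, at chr9:7445822-7455975, chr9:7344381-7369499 and chr9:7272514-7283331. The other members lie at chr8:92827291-92853420 (Mmp2), chr14:54431612-54445364 (Mmp14), chr1:171250421-171260637 (Adamts4), chr16:85856173-85901828 (Adamts5), chrX:20870166-20874735 (Timp1), chr11:118301069-118355740 (Timp2) and chr10:86300372-86349506 (Timp3).

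After the limits of at least 500 genes, at most 10% mitochondrial and at most 1% hemoglobin UMIs, 2667 of 7671 PBS barcodes and 4014 of 5709 CFA barcodes remained, with 27201994 and 44432717 unique molecular identifiers (UMIs, each 1 captured molecule) and medians of 7022 and 6510 UMIs per cell. The hemoglobin limit alone removed 3178 PBS and 339 CFA barcodes. The libraries shared 10 barcode sequences, 2 of them among the cells kept. Cells were clustered without the member genes and named from marker genes, and 15 classes had at least 50 cells in both libraries. Levels are UMIs of a gene scaled to the same total number of UMIs in every class and library (CPM), and ratios are CFA over PBS with exact 95% intervals that cover counting error only. Because 3′ UMIs count transcript ends, levels are compared between classes and libraries for 1 gene at a time. Shares of cells with a UMI are given as counted and after each cell was thinned to 1000 UMIs. B cell-like cells (147 PBS and 89 CFA cells, median 3944 and 4834 UMIs) served as the background for free RNA. Of them, 0% held an Mmp3 UMI in either library (the upper limits are 2.04% and 3.37%), 0.680% and 1.12% held Mmp13, 1.36% and 1.12% held Timp1, and 9.52% and 4.49% held Timp3. This background was not equal. Col1a1 was 779 CPM in PBS and 45.9 CPM in CFA, Col3a1 707 and 24.6 CPM, Mmp2 36.4 and 0 CPM and Timp2 35.2 and 9.83 CPM. Timp3 (50.5 and 60.6 CPM) and Mmp12 (0 and 16.4 CPM) were higher in CFA. The part of this background in the ratios of other classes was not tested.

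**Figure D1:**
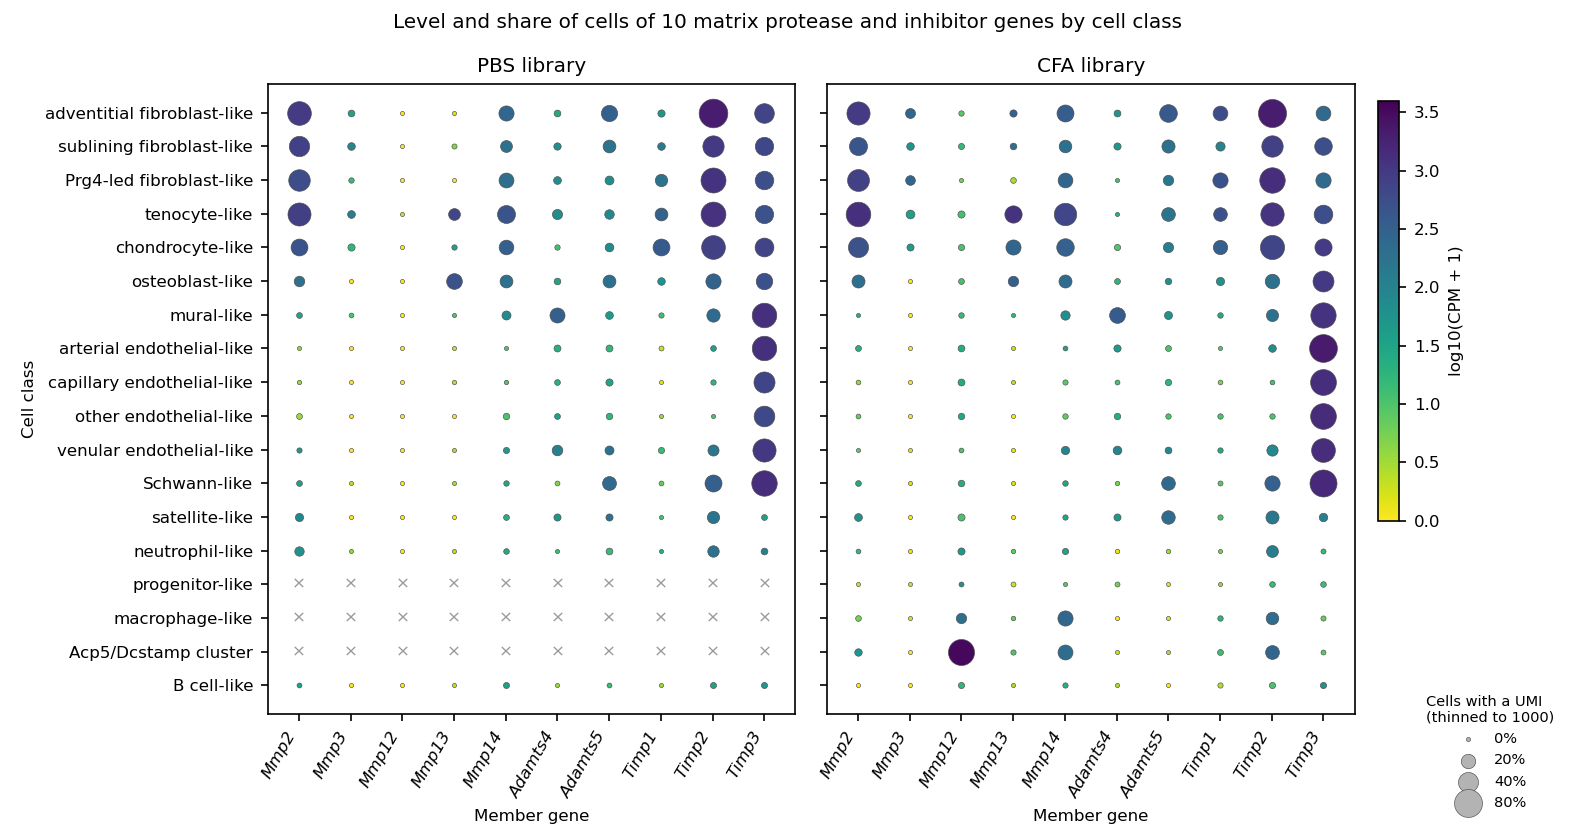
Level of each member by cell class, PBS and CFA side by side. Colour is log10(CPM + 1), dot size is the share of cells with a UMI after thinning to 1000 UMIs, and a cross marks a class with under 50 cells in that library. Mmp13 and Mmp14 are highest in the tenocyte-like class, Adamts4 in mural-like cells and Timp2 in adventitial fibroblast-like cells of both libraries. The tenocyte-like class joins groups with and without Mmp13.

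The class with the highest level differed among the members, and some members shared a class. Levels are ranked here over the 15 classes with at least 50 cells in both libraries. In both libraries, Mmp13 and Mmp14 were highest in the tenocyte-like class, Adamts5 and Timp2 in adventitial fibroblast-like cells, and Adamts4 in mural-like cells, which are the pericytes and smooth muscle cells of vessel walls. Within the tenocyte-like class the cells with Mmp13 had lower tenocyte markers than the others, as described below. Timp3 stood apart from the other inhibitors, with its highest PBS levels in Schwann-like (1338 CPM), mural-like (1280 CPM) and arterial endothelial-like cells (1248 CPM), whose intervals overlapped in that order, and with arterial endothelial-like cells highest in CFA (2164 CPM). The few lymphatic-like cells, 18 in PBS and 12 in CFA, lay above these at 1809 and 3170 CPM. The leading class of Mmp2, Mmp3 and Timp1 was not the same in the libraries either. For Mmp2 it was adventitial in PBS (950 CPM) and tenocyte-like in CFA (1278 CPM), for Mmp3 tenocyte-like in PBS (120 CPM) and Prg4-led fibroblast-like in CFA (271 CPM, with an interval that overlaps that of adventitial cells at 254 CPM), and for Timp1 chondrocyte-like in PBS (391 CPM) and adventitial in CFA (602 CPM).

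The class names rest on fixed markers and have limits. Adventitial fibroblast-like cells (135 PBS and 162 CFA cells) held all 5 markers Pi16, Dpp4, Sema3c, Anxa3 and Ackr3, and sublining fibroblast-like cells (212 and 149) held Col15a1, Smoc2 and Apod. The remaining fibroblast cluster (154 and 62 cells) was led by Prg4, the lubricant of the synovial surface, but held only 1 of 6 lining markers, and is called Prg4-led rather than lining. Tenocyte-like cells (156 and 112) held all 6 of their markers, Tnmd, Scx, Mkx, Fmod, Kera and Thbs4, and yet contained groups with and without Mmp13, described below. Chondrocyte-like cells (83 and 86) included a cluster of 26 cells from PBS only. A myeloid cluster of 274 cells came from the CFA library only, and a cluster of a single library may be that library and not a cell type. Macrophage-like cells numbered 20 in PBS and 309 in CFA, so their members' levels are given for CFA.

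Most UMIs of Mmp13, the collagenase, lay in the tenocyte-like and osteoblast-like classes in the PBS library, and it was found in more classes in the CFA library. In PBS the cells of these classes that held Mmp13 had lower levels of the class's own markers than the others, as given below. Tenocyte-like cells held 1475 UMIs in PBS (699 CPM) and 1640 in CFA (1198 CPM), a ratio of 1.71 (1.60 to 1.84), which did not pass the 2-fold limit used here to call a gene higher or lower. The share of tenocyte-like cells with a UMI was 25.6% in PBS and 54.5% in CFA, and 12.8% and 29.5% after thinning. A PBS cell with 802 UMIs, the other PBS cells holding at most 139, lowered this ratio, which was 3.01 without the top cell of each library. Cells with at least 10 Mmp13 UMIs numbered 14 in PBS and 35 in CFA. Thus the CFA library held Mmp13 in more tenocyte-like cells, and its molecules were spread over them more evenly.

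In chondrocyte-like cells, marked by Col2a1 and Acan, Mmp13 was 35.1 CPM in PBS (61 UMIs in 14 of 83 cells) and 264 CPM in CFA (514 UMIs in 34 of 86 cells), 7.53-fold higher (5.77 to 9.99). Thinned shares were 1.22% and 22.1%. The single CFA cell with the most UMIs held 247 of them, and the ratio was 7.07 without the top cell of each library and 4.00 without the highest doublet scores. In the cluster that both libraries shared (57 PBS and 86 CFA cells) the levels were 41.6 and 264 CPM, and the PBS-only cluster held 0 Mmp13 UMIs. Mmp13-holding cells carried chondrocyte markers at 3853 CPM (PBS) and 5998 CPM (CFA), against 24247 and 39688 CPM in the other cells of the class. Osteoblast markers summed to 7399 CPM in PBS and 27772 CPM in CFA within the chondrocyte-like class. They were at 953 and 12346 CPM in the Mmp13-holding cells, against 8896 and 36212 CPM in the others. The part of these markers in the Mmp13 difference was not tested.

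Fibroblasts held almost no Mmp13 in PBS. Adventitial fibroblast-like cells had 1 UMI in PBS (0.557 CPM) and 1020 in CFA (315 CPM), a ratio of 566 with an interval of 101 to 22365. The CFA molecules lay in 9 of 162 cells, with 525, 229, 78, 61, 43, 42, 39, 2 and 1 UMIs. These 9 cells had fibroblast markers at a summed level close to that of the other adventitial cells (33115 against 32899 CPM) and lower tenocyte markers (208 against 528 CPM). Sublining fibroblast-like cells had 7 UMIs in PBS (3.71 CPM) and 288 in CFA (199 CPM), 53.6-fold higher (25.7 to 135), but 254 of the 288 came from 1 of 6 cells, and without the top cell of each library the ratio was 14.98, and it was 1.74 among cells with at least 1000 genes. Prg4-led fibroblast-like cells held 0 UMIs in PBS and 2 in CFA. The fibroblast signal was therefore strong in a few cells and not detected in most.

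Osteoblast-like cells held Mmp13 at 485 CPM in PBS and 323 CPM in CFA (ratio 0.667, 0.588 to 0.757). This class joined a cluster with Bglap and Phex, genes of mature osteoblasts and osteocytes, in which Mmp13 was 699 CPM in PBS (35 cells) and 991 CPM in CFA (28 cells), and a cluster with Sp7 and Runx2 and without Bglap among its detected markers, in which it was 218 CPM (37 cells) and 3.46 CPM (85 cells). The leading genes of the Bglap cluster also included Adipoq, Lepr and Esm1. Mmp13-holding cells of the class carried osteoblast markers at 6891 CPM in PBS and 18028 CPM in CFA, against 58178 and 18953 CPM in the others. In PBS the Mmp13 molecules thus did not lie in the cells with the clearest osteoblast markers. The class-wide ratio is below 1 although the Bglap cluster was higher in CFA. That ratio was 1.46 with 50 principal components and 1.25 with a mitochondrial limit of 20%.

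**Figure D2:**
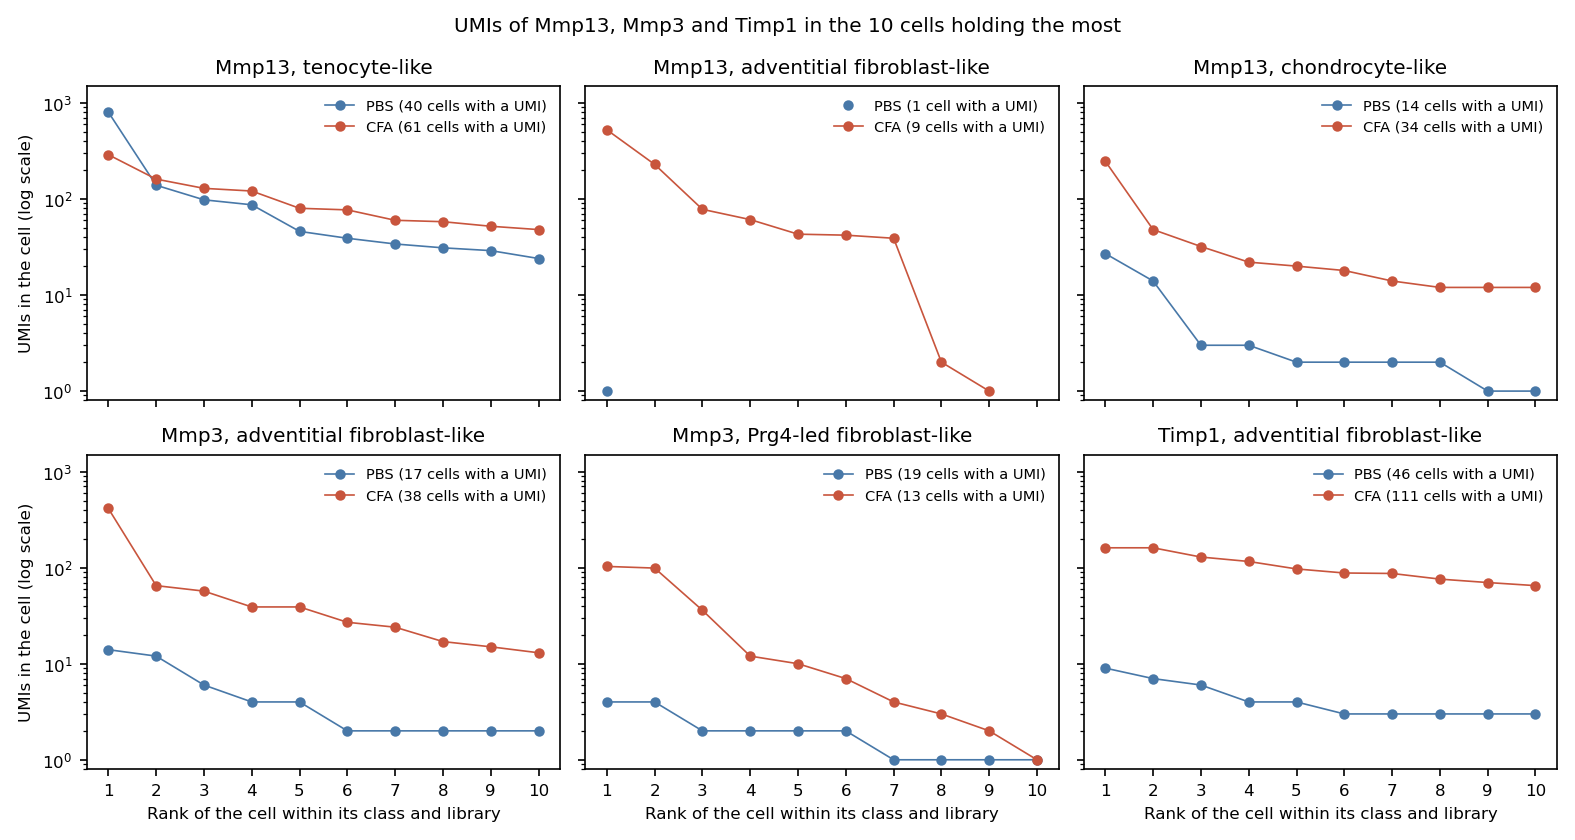
UMIs of Mmp13, Mmp3 and Timp1 in the 10 cells with the most UMIs of that gene, by class and library; each point is 1 cell, ranked from the highest, on a log axis. In adventitial fibroblast-like cells of the CFA library the top cells hold 525 Mmp13, 413 Mmp3 and 161 Timp1 UMIs, against 1, 14 and 9 in PBS.

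Mmp3, the stromelysin, moved in opposite directions in different fibrous classes. In adventitial fibroblast-like cells it was 32.8 CPM in PBS (59 UMIs in 17 cells) and 254 CPM in CFA (823 UMIs in 38 cells), 7.74-fold higher (5.94 to 10.3), and the shares were 12.6% and 23.5%, or 2.96% and 8.64% after thinning. A single CFA cell held 413 of the 823 UMIs, and the ratio was 5.03 without the top cell of each library. In Prg4-led fibroblast-like cells Mmp3 was 13.5 CPM in PBS (29 UMIs in 19 cells) and 271 CPM in CFA (280 UMIs in 13 cells), 20.2-fold higher (13.7 to 30.7). No PBS cell of this class held more than 4 UMIs, while 5 CFA cells held 10 or more, the top pair 103 and 99. The ratio was 8.30 with 50 principal components. In chondrocyte-like cells it was 16.7 and 42.7 CPM (2.56, 1.66 to 4.05), from 7 and 9 cells, and the ratio was 1.36 with a mitochondrial limit of 20%.

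In tenocyte-like cells Mmp3 was lower in the CFA library, at 120 CPM in PBS (254 UMIs) and 37.3 CPM in CFA (51 UMIs), a ratio of 0.310 (0.225 to 0.420). The cells with a UMI numbered 17 and 14, and the 4 highest held 94, 68, 28 and 23 UMIs in PBS and 14, 10, 7 and 4 in CFA, so that the difference lay in the amount per cell rather than in the number of cells. Sublining fibroblast-like cells had 88.5 CPM in PBS and 49.7 CPM in CFA (0.562, 0.420 to 0.745), which did not pass the fold. Osteoblast-like and B cell-like cells held no Mmp3 UMI in either library, and endothelial-like cells held 1 in all.

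Mmp12, the macrophage elastase, was found almost only in the CFA library. It had 2 UMIs among all PBS cells, both in 1 tenocyte-like cell, and 32911 UMIs in CFA (741 CPM over all cells), a ratio of 10074 whose interval runs from 2789 to 83189. The CFA-only myeloid cluster, here called the Acp5/Dcstamp cluster, held 31275 of them, 95.03%, at 3337 CPM. Of its 274 cells, which were 6.83% of the CFA cells after the CD45+ depletion, 245 had a UMI, and the count per cell was 0 at the lowest, 66 at the median and 629 at the highest. Mmp12 was thus a broad feature of this cluster and did not rest on a few cells.

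Acp5, Dcstamp and Atp6v0d2, genes of the osteoclast program, defined the cluster among the fixed markers, and Ctsk, the collagen-cutting cathepsin of osteoclasts, was detected in 56.2% of its cells (85.04 CPM). The markers did not settle its type. Among the osteoclast markers, Oscar was at 0.107 CPM and Ocstamp at 1.07 CPM, and Nfatc1 was at 46.2 CPM against 57.0 CPM in macrophage-like cells. Of the macrophage markers, Csf1r was present in 98.9% of cells, at 373 CPM against 528 CPM in macrophage-like cells. C1qb, a complement gene of macrophages, was at 452 against 2031 CPM, Adgre1 at 80.7 against 291 CPM and Mrc1 at 8.96 against 351 CPM. Its leading genes were Mmp12, H2-M2, Dcstamp, Prdx1, Ccl6, Inhba, Cxcl3 and Spp1. Macrophage-like cells of the CFA library held Mmp12 at 200 CPM (842 UMIs in 84 of 309 cells), with 216, 105, 68 and 60 UMIs in the highest. Neutrophil-like cells held 148 UMIs, of which 112 were in 1 cell.

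Progenitor-like cells were at 55.7 CPM (134 UMIs in 19 of 131 cells, 114 of them in 1 cell) and cells of unnamed clusters at 81.4 CPM (190 UMIs in 50 of 438 cells, 74 of them in 1 cell). In the other CFA classes with at least 50 cells in both libraries Mmp12 was at 4.85 to 26.4 CPM, nearly always as 1 or 2 UMIs per cell. The B cell-like background was at 16.4 CPM and 11.2% of cells (5.52% to 19.7%), against 0 UMIs in PBS. With that count of 0 set to 3 counts, B cell-like cells were 4.65-fold higher, and the exact lower limit of the ratio was 3.13. The levels in that range are read as background, and the Mmp12 calls they bring into the counts below are named there.

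Mmp2 and Mmp14, the gelatinase and its membrane activator, were broad stromal transcripts whose differences between the libraries stayed under 2-fold in the fibrous and skeletal classes. In tenocyte-like cells Mmp2 was 857 CPM in PBS and 1278 in CFA (1.49, 1.40 to 1.59) and Mmp14 was 481 and 713 CPM (1.48, 1.36 to 1.62). In adventitial fibroblast-like cells, 98.5% and 99.4% of which held it, Mmp2 was 950 and 926 CPM (0.975, 0.918 to 1.04). In sublining fibroblast-like cells Mmp2 was 816 and 436 CPM (0.534, 0.486 to 0.586), where the summed fibroblast markers were also lower, 30154 and 15967 CPM. Mmp14 was 254 and 339 CPM in adventitial cells (1.34, 1.20 to 1.49), 197 and 274 CPM in Prg4-led cells (1.39, 1.19 to 1.62) and 335 and 312 CPM in chondrocyte-like cells (0.929, 0.828 to 1.04).

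Mmp14 was also found outside the stroma. In venular endothelial-like cells it was 44.5 CPM in PBS and 90.6 CPM in CFA, 2.04-fold higher (1.51 to 2.79), with a UMI in 28.9% and 50.3% of cells. Arterial endothelial-like cells held 9 UMIs in PBS and 38 in CFA (8.79 and 33.0 CPM, ratio 3.76, 1.79 to 8.84). In the CFA library it was at 262 CPM in macrophage-like cells and 212 CPM in the Acp5/Dcstamp cluster, in 78.3% and 98.2% of cells. Mmp2 in that cluster was at 49.5 CPM.

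Adamts4, an aggrecanase, was a vessel-wall transcript in both libraries. Mural-like cells held it at 319 CPM in PBS and 367 CPM in CFA (1.15, 1.04 to 1.28), in 58.1% and 55.9% of cells, and venular endothelial-like cells came next at 109 and 92.5 CPM (0.851, 0.685 to 1.06). The fibrous classes differed more. In tenocyte-like cells it was 68.7 CPM in PBS (145 UMIs, 37.2% of cells) and 19.7 CPM in CFA (27 UMIs, 16.96%), a ratio of 0.287 (0.183 to 0.435), and in Prg4-led fibroblast-like cells 66.9 CPM (144 UMIs, 24.7%) and 9.69 CPM (10 UMIs, 12.9%), a ratio of 0.145 (0.0680 to 0.274). In adventitial cells it was 25.6 and 51.6 CPM (2.01, 1.45 to 2.85). The adventitial value is at the edge of the fold, since 43 of the 167 CFA UMIs were in 1 cell and the ratio was 1.65 without the top cell of each library, 0.881 without the hemoglobin limit, 0.351 when the libraries were merged without integration and 0.992 with each cell classed on its own.

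Adamts5, the other aggrecanase, was highest in adventitial fibroblast-like cells, at 323 CPM in PBS and 399 CPM in CFA (1.24, 1.12 to 1.36). Schwann-like cells, the glia of peripheral nerves, came second at 236 and 243 CPM (1.03, 0.894 to 1.19), and satellite-like cells, the muscle stem cells, were at 179 and 216 CPM. In tenocyte-like cells Adamts5 was 80.1 CPM in PBS and 171 CPM in CFA, 2.14-fold higher (1.74 to 2.62), and in Prg4-led fibroblast-like cells 67.8 and 152 CPM, 2.24-fold higher (1.78 to 2.83). In these classes the 2 aggrecanases therefore moved in opposite directions, Adamts4 lower and Adamts5 higher. In osteoblast-like cells Adamts5 was 194 and 64.9 CPM (0.335, 0.262 to 0.427), with 302 and 188 CPM in the Bglap cluster and 59.3 and 6.05 CPM in the other, and the ratio was 1.26 with 50 principal components. In venular endothelial-like cells it was 185 and 87.4 CPM (0.472, 0.390 to 0.570, and 0.546 among cells with at least 1000 genes), where the summed fibroblast markers went from 1176 CPM in PBS to 74.9 CPM in CFA and their part was not tested.

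Timp1, the inducible inhibitor, had its largest ratio among the stromal classes in adventitial fibroblast-like cells, at 51.8 CPM in PBS (93 UMIs) and 602 CPM in CFA (1950 UMIs), 11.6-fold higher (9.44 to 14.5). The share of these cells with a UMI was 34.1% and 68.5%, and 3.70% and 20.99% after thinning. No PBS cell held more than 9 UMIs, while 38 CFA cells held 10 or more and the highest 4 held 161, 161, 129 and 116, so the difference was not set by 1 cell. In Prg4-led cells Timp1 was 170 and 514 CPM (3.03, 2.65 to 3.47), and the ratio was 2.19 without the top cell of each library and 1.33 with a mitochondrial limit of 20%. The class joined groups that 50 principal components set apart. A group led by Prg4, Slurp1 and Hbegf, of 32 PBS and 7 CFA cells, held 240 of the 365 PBS and 340 of the 530 CFA Timp1 UMIs, and the 116 PBS and 55 CFA cells that kept the class name were led by Lgr5, Angptl1 and Cilp. Tenocyte-like cells were at 304 and 525 CPM (1.73, 1.55 to 1.92), osteoblast-like cells at 57.1 and 60.2 CPM (1.05, 0.751 to 1.49) and chondrocyte-like cells at 391 and 330 CPM (0.845, 0.758 to 0.943), the last 1.10 as a mean over cells. Endothelial-like cells held little, 21 UMIs in PBS and 93 in CFA (3.56 and 13.5 CPM, ratio 3.80, 2.34 to 6.42).

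Timp2, the constitutive inhibitor, was almost level in its main class. Adventitial fibroblast-like cells held it at 2123 CPM in PBS and 2097 CPM in CFA (0.988, 0.949 to 1.03), Prg4-led cells at 1179 and 1333 CPM (1.13, 1.06 to 1.21) and tenocyte-like cells at 1237 and 1144 CPM (0.925, 0.868 to 0.985). The widest differences among the skeletal and vascular classes were in venular endothelial-like cells at 143 and 78.8 CPM (0.550, 0.447 to 0.677) and arterial endothelial-like cells at 36.1 and 70.4 CPM (1.95, 1.31 to 2.96). None of these passed the fold.

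Timp3, the matrix-bound inhibitor of aggrecanases, was lower in fibroblasts of the CFA library and higher in endothelium. In adventitial fibroblast-like cells it was 744 CPM in PBS and 232 CPM in CFA, a ratio of 0.312 (0.285 to 0.342), with a UMI in 89.6% and 58.6% of cells and in 38.5% and 20.99% after thinning. In Prg4-led cells it was 534 and 230 CPM (0.430, 0.372 to 0.495), or 0.776 with 50 principal components, and in sublining cells 678 and 537 CPM (0.792, 0.723 to 0.867), the latter 1.07 as a mean over cells. In the other direction, arterial endothelial-like cells held 1248 and 2164 CPM (1.73, 1.62 to 1.86), capillary endothelial-like cells 715 and 1340 CPM (1.87, 1.77 to 1.98) and endothelial-like cells of no named vessel type 646 and 1442 CPM (2.23, 2.01 to 2.49), a ratio that was 1.495 without the hemoglobin limit. Thinned shares went with these levels, from 61.0% to 79.3% in arterial and from 44.7% to 68.1% in capillary endothelial-like cells, and only the endothelial-like cells of no named type passed the fold. Mural-like cells were at 1280 and 1171 CPM (0.915, 0.866 to 0.967).

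Timp3 in the skeletal classes depended on which cells each library held. Osteoblast-like cells were at 506 CPM in PBS and 1014 CPM in CFA (2.005, 1.81 to 2.22), with both clusters higher in CFA (323 and 738 CPM in the Bglap cluster, 733 and 1146 CPM in the other), and the ratio was 1.21 with 50 principal components. Chondrocyte-like cells were at 761 and 940 CPM (1.23, 1.15 to 1.33, and 0.646 as a mean over cells), but the cluster that both libraries shared was at 395 and 940 CPM, because the 26 cells of the PBS-only cluster were at 2749 CPM. Neutrophil-like cells were at 108 and 15.04 CPM (0.139), where the collagen gene Col1a1, which neutrophils do not make, was at 1955 and 137 CPM.

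The tenocyte-like class held groups that differed in these genes. With 50 principal components in place of 200, 110 PBS and 91 CFA of its cells fell into a group led by Mmp13, Gpx3, Ostn, Pdzrn4 and Fat3, with Postn and Tnn, which the marker rule then named osteoblast-like, and 43 PBS and 16 CFA cells into a group led by Kera, Tnmd and Thbs4 with Scx and Mkx. In the Mmp13-led group Mmp13 was 983 CPM in PBS and 1580 CPM in CFA, and 35.5% and 63.7% of cells had a UMI, whereas the Kera/Tnmd group held 1 and 2 UMIs. Timp1 was the reverse. It was at 217 and 219 CPM in the Mmp13-led group and at 536 and 1463 CPM in the Kera/Tnmd group, although 10 CFA cells carried the latter. Mmp2 (991 and 1415 CPM against 544 and 769 CPM) and Mmp14 (618 and 842 CPM against 146 and 345 CPM) were higher in the CFA library in each group. Mmp3 and Adamts5 lay mostly in the Mmp13-led group, at 168 and 37.6 CPM for Mmp3 and 92.7 and 190 CPM for Adamts5, with 37.8 and 16.4 CPM of Adamts5 in the Kera/Tnmd group (22 and 5 UMIs). Cells of the class with an Mmp13 UMI carried tenocyte markers at 1151 CPM in PBS and 1598 CPM in CFA against 7625 and 8167 CPM in cells without, and osteoblast markers at 7267 and 3946 CPM against 1355 and 1103 CPM, so the Mmp13 molecules did not lie in the cells with the clearest tenocyte markers. A merge without integration split the class in the same manner, with 1467 and 1638 Mmp13 UMIs in 97 PBS and 93 CFA cells and 2 and 2 UMIs in the Kera/Tnmd group.

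**Figure D3:**
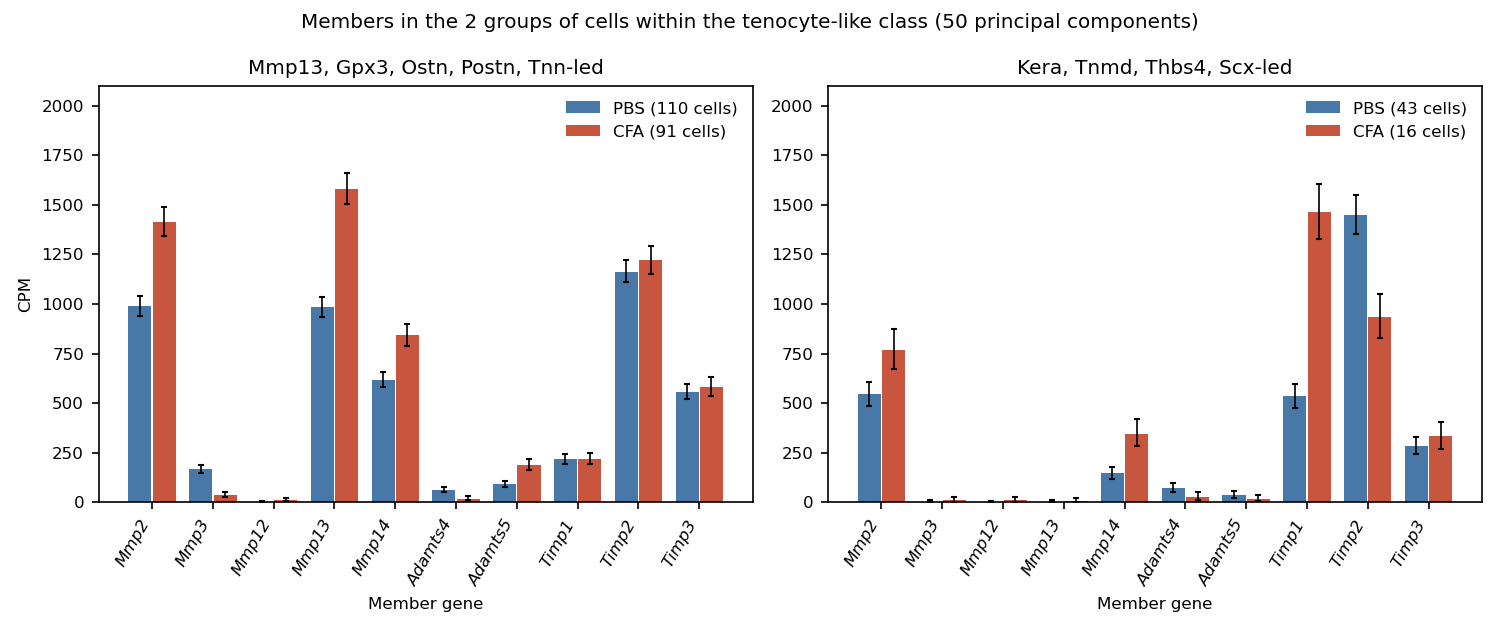
Levels in CPM of the members in the groups within the tenocyte-like class found with 50 principal components, PBS and CFA; error bars are exact 95% Poisson intervals. Mmp13 lies in the Mmp13-led group (983 and 1580 CPM), while the higher Timp1 of the CFA library lies in the Kera/Tnmd group (536 and 1463 CPM).

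The adventitial differences likewise came from part of the class. When the libraries were merged without integration, 67 of the 162 CFA cells clustered with all 135 PBS cells, and 95 joined a cluster of 127 CFA and 3 PBS cells led by Cxcl5, Mmp3, Ccn5 and Col14a1. These 95 cells held 789 of the 823 Mmp3 UMIs, 1018 of the 1020 Mmp13 UMIs and 1916 of the 1950 Timp1 UMIs of the class, at 331, 427 and 804 CPM. Their Timp3 was 107 CPM. The other 67 CFA cells had Mmp3 at 39.7 CPM, Mmp13 at 2.33 CPM, Timp1 at 39.7 CPM and Timp3 at 581 CPM, against 32.8, 0.557, 51.8 and 744 CPM in the PBS cells. In that merge the marker rule gave the CFA-rich cluster no adventitial name, and the cluster named adventitial (446 PBS and 224 CFA cells) also took in 130 PBS and 52 CFA Prg4-led and 161 PBS and 100 CFA sublining cells. Its ratios were 1.27 for Mmp3, 1.39 for Mmp13, 1.47 for Timp1 and 0.777 for Timp3. A state of these fibroblasts and a property of the CFA library cannot be told apart with 1 library each. Among the 162 CFA cells, 86.8% of those with an Mmp3 UMI also had Timp1, against 62.9% of those without, and the former were deeper (median 23338 against 16226 UMIs). Between the libraries other markers also moved in this class. Neutrophil markers summed to 1359 CPM in PBS and 147 CPM in CFA, endothelial markers to 140 and 18.8 CPM and macrophage markers to 4.45 and 65.1 CPM, and their part in the differences was not tested.

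With a ratio of at least 2 or at most 0.5 as the call, among genes with at least 10 UMIs over both libraries of a class, 5 of the 10 members were called higher and 1 lower in adventitial fibroblast-like cells, where 9.88% and 7.67% of all genes tested were. The higher members were Mmp3, Mmp12 (25 UMIs, near the background level), Mmp13, Adamts4 and Timp1, and the lower was Timp3. The median log2 ratio of the members was 0.71, against -0.00 over all genes tested. In Prg4-led cells 8 members had enough UMIs, of which Mmp3, Adamts5 and Timp1 were higher (5.93% of all genes) and Adamts4 and Timp3 lower (9.14%), with a median of 0.43 against -0.03. Over all fibroblast-like cells Mmp3, Mmp12, Mmp13 and Timp1 were higher (10.2%) and Timp3 lower (6.69%), of 10 tested. In tenocyte-like cells Mmp12 (15 UMIs) and Adamts5 were higher (5.53%) and Mmp3 and Adamts4 lower (8.37%), of 10 tested. In chondrocyte-like cells Mmp3, Mmp12 (19 UMIs) and Mmp13 were higher (7.05%) and none lower (9.6%), of 10. In sublining cells Mmp12 (21 UMIs) and Mmp13 were higher (13.4%) and none lower (6.72%), of 10, with a median of -0.32 against 0.08. In osteoblast-like cells Mmp12 (18 UMIs) and Timp3 were higher (10.4%) and Adamts5 lower (8.08%), of 9.

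Outside these classes most calls rested on few molecules. In mural-like cells Mmp12 and Timp1 were called higher (5.57% of all genes) and Mmp3 lower (7.12%), the latter from 17 PBS UMIs in 2 cells. Arterial endothelial-like cells had 5 members higher of 8 tested (8.56%) and none lower (7.39%), namely Mmp2, Mmp12, Mmp14, Adamts4 and Timp1, each with under 60 UMIs in either library. Summed fibroblast markers in that class were 142 CPM in PBS and 425 CPM in CFA. In venular endothelial-like cells Mmp12 and Mmp14 were higher (6.66%) and Mmp2 and Adamts5 lower (9.66%), of 8 tested. Capillary endothelial-like cells had Mmp12 and Timp1 higher (6.22%) and none lower (9.32%), of 8, and endothelial-like cells of no named type had Mmp12 and Timp3 higher (8.53%) and none lower (14.2%), of 6. Over all endothelial-like cells 3 of 9 were higher (6.24%), namely Mmp12, Mmp14 and Timp1, and none was lower (8.07%). In satellite-like cells Timp3 was higher (11.3%; 13 UMIs in PBS and 67 in CFA) and none was lower (9.62%), of 7. In Schwann-like cells Mmp12 alone was called higher (10.3%) and none was lower (4.77%), of 8. In neutrophil-like cells 2 of 9 were higher (9.36%) and 5 lower (17.5%). In the B cell-like background Mmp12 was higher (5.13%) and Mmp2, Adamts5 and Timp2 lower (8.34%), of 6. Over all cells of the libraries only Mmp12 was called, of 10 members, where 10.4% of genes were higher and 11.8% lower. The other 9 had all-cell ratios of 0.650 (Mmp2) to 1.41 (Mmp3), so that the differences within classes were not visible in the sum of all cells.

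**Figure D4:**
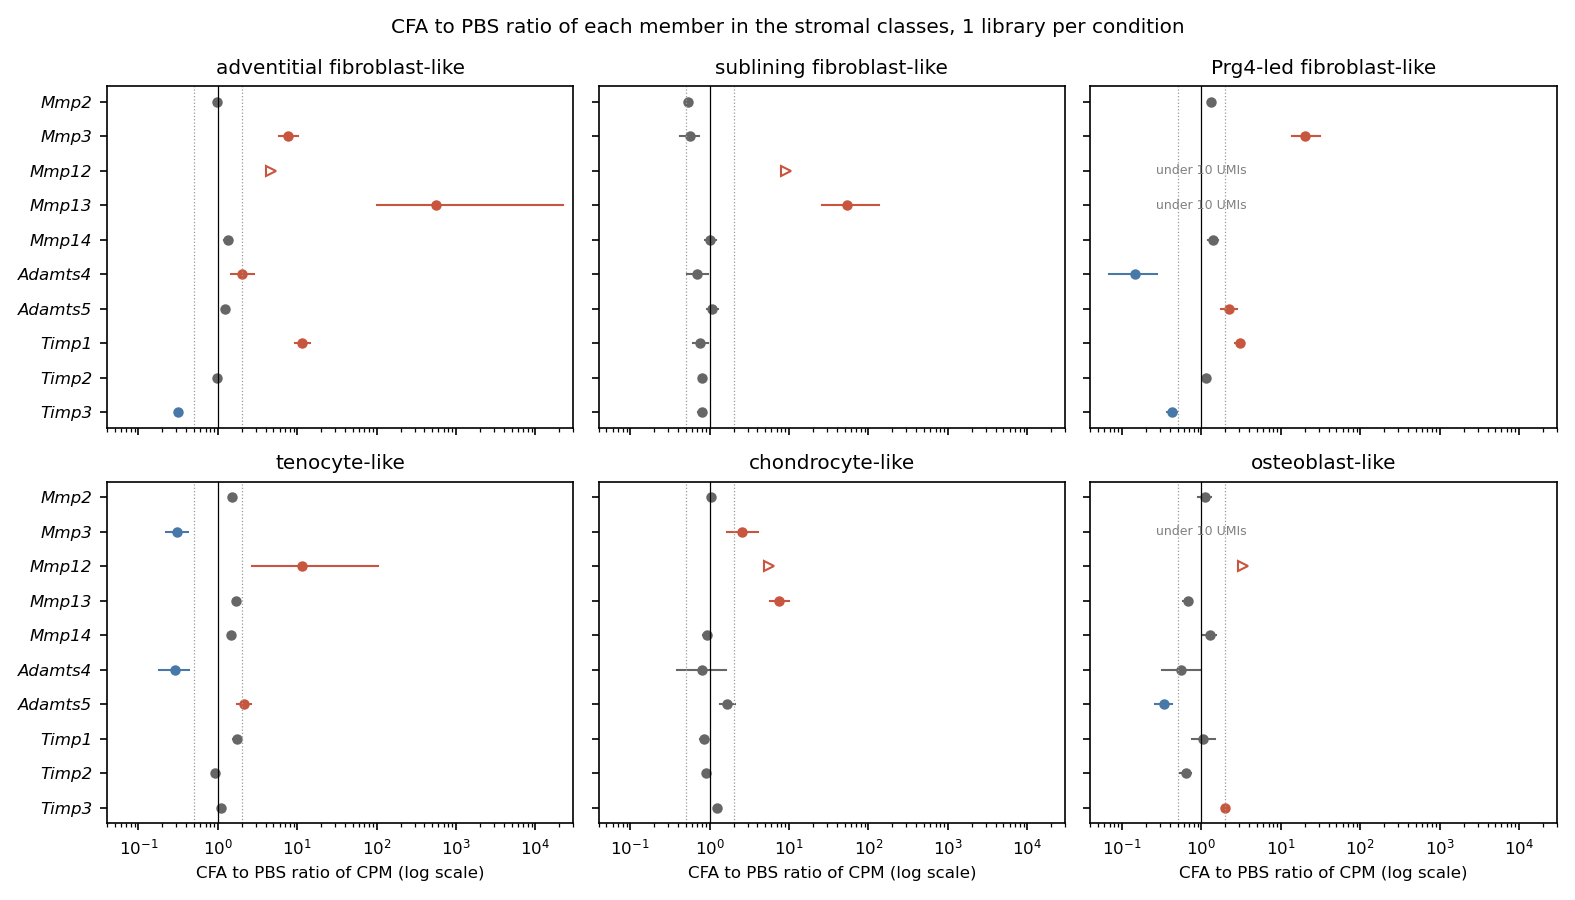
CFA to PBS ratio of each member's CPM in 6 stromal classes, on a log axis, with exact 95% intervals for counting error; triangles are lower bounds for a gene with 0 PBS UMIs, and dotted lines mark 2-fold. Mmp3 lies at 20.2 and 7.74 in Prg4-led and adventitial fibroblast-like cells and at 0.310 in tenocyte-like cells, and Timp3 at 0.312 and 0.430 in the first pair.

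The same molecules can also be counted by the class in which they lay. In the PBS library 44.3% of Mmp3 UMIs were in tenocyte-like, 29.1% in sublining and 10.3% in adventitial cells, and in the CFA library 62.4% were in adventitial and 21.2% in Prg4-led cells. Tenocyte-like cells held 72.1% of PBS and 39.0% of CFA Mmp13 UMIs, and adventitial cells, at 24.3%, were the second source in CFA. Timp1 was mostly chondrocyte-like (30.9%) and tenocyte-like (29.1%) in PBS and adventitial (43.6%) in CFA. For Timp2 and Adamts5 the adventitial share was 26.2% and 23.6% in PBS and 37.4% and 38.6% in CFA, while adventitial cells were 5.06% of PBS and 4.04% of CFA cells. For Mmp14, 26.7% of the CFA UMIs came from the Acp5/Dcstamp cluster and 14.9% from macrophage-like cells. These shares also depend on how many cells of each class were captured after the digestion and the depletion.

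**Figure D5:**
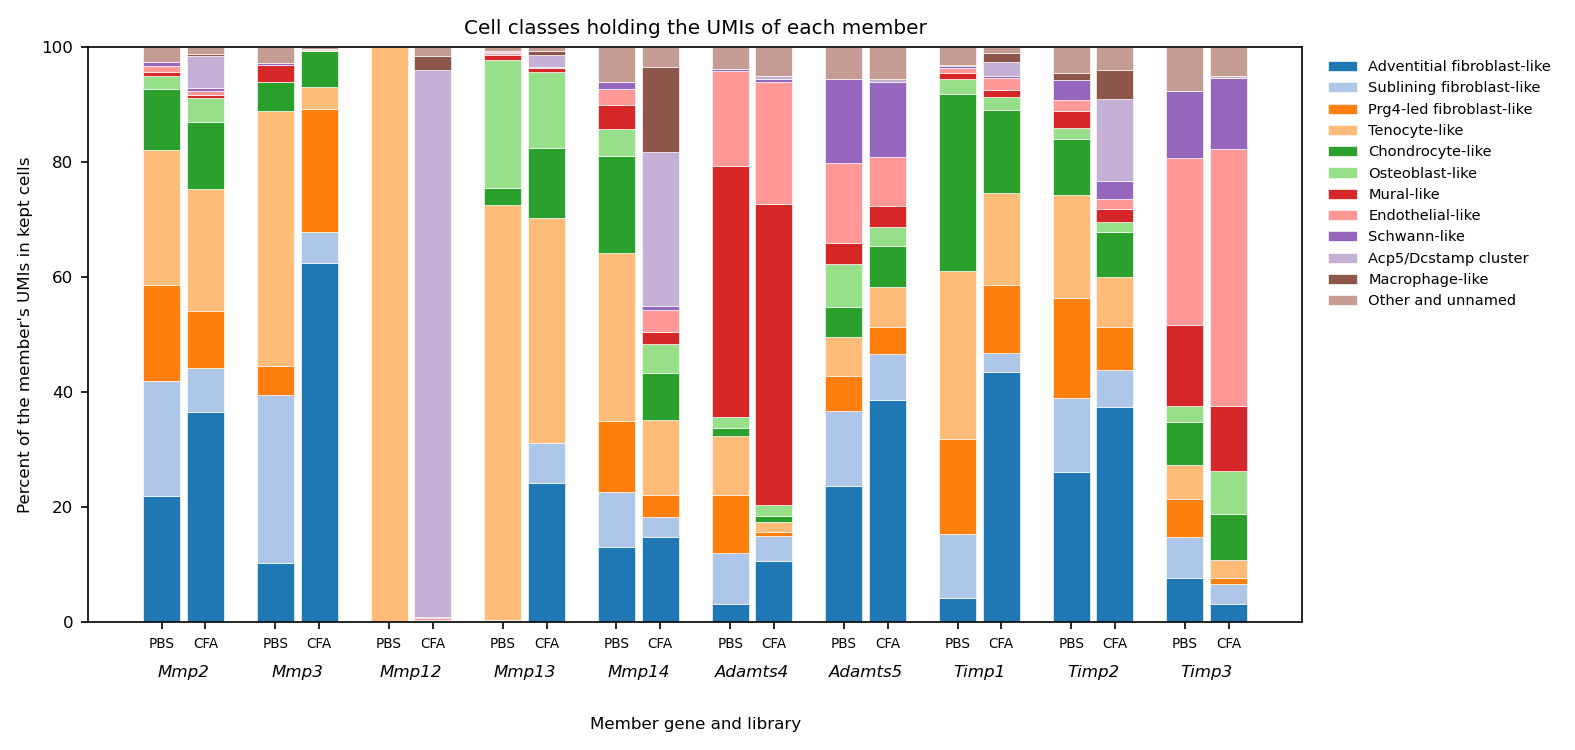
Percent of each member's UMIs that came from each cell class, PBS and CFA bars side by side, each adding to 100. Adventitial fibroblast-like cells hold 10.3% of PBS and 62.4% of CFA Mmp3 UMIs, the Acp5/Dcstamp cluster holds 95.03% of CFA Mmp12 UMIs, and the PBS Mmp12 bar rests on 2 UMIs.

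The sum of the 7 proteases over the sum of the 3 TIMPs needs no scaling between the libraries, although its value depends on how well each transcript is captured and is compared only between libraries. In adventitial fibroblast-like cells it was 0.543 in PBS and 0.782 in CFA, a ratio of ratios of 1.44 (1.36 to 1.52) that turned to 0.927 in the merge without integration, in Prg4-led cells 0.504 and 0.725 (1.44, 1.32 to 1.56) and in tenocyte-like cells 1.14 and 1.55 (1.36, 1.28 to 1.45). In the fibroblasts the lower Timp3 level is part of the TIMP sum, beside the higher Timp1 level. In adventitial cells Timp1 was 51.8 CPM in PBS and 602 CPM in CFA, Timp2 2123 and 2097 CPM and Timp3 744 and 232 CPM. Among the proteases there, Mmp13 was 0.557 and 315 CPM and Mmp3 32.8 and 254 CPM, while Mmp2 was almost level (950 and 926 CPM). Of the CFA UMIs, all 1020 of Mmp13 lay in 9 of 162 cells, and 413 of the 823 of Mmp3 in 1 cell. The part of each gene in the adventitial 1.44 was not tested. In sublining cells the ratio of proteases to TIMPs was 0.736 and 0.773 (1.05, 0.966 to 1.14). It was lower in CFA in osteoblast-like cells, 1.25 and 0.668 (0.536, 0.478 to 0.6002), a direction that turned to 1.24 with 50 principal components, and in all endothelial-like cells, 0.139 and 0.102 (0.735, 0.666 to 0.811), where Timp3 makes up most of the sum. Over all cells it was 0.516 and 1.29, with Mmp12 from the Acp5/Dcstamp cluster as the larger part of the CFA proteases.

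Across the 33 class levels of both libraries, Pearson's correlation of log levels (10 CPM added) over 5864 genes placed Mmp2 next to Dcn (0.951), Lum and Col5a1, matrix genes of fibroblasts, and Timp1 next to Aebp1 (0.931), Ctsk and Igsf10. The gene most like Mmp13 was Tnfsf11 (0.883), which encodes the osteoclast cytokine RANKL, followed by Pax9 and Bcl11b. Mmp3 was nearest to Itgbl1 (0.862), Angptl1 and Cilp, Mmp12 to Cxcl3 (0.939), H2-M2 and Bcl2a1d, and Mmp14 to Slc41a2 (0.897), Ctsk and Nupr1. Adamts4 was nearest to Gjc1 (0.820), Kcnj8 and Oaz2, Adamts5 to Dbn1 (0.889), Mir100hg and Frmd6, Timp2 to Ltbp3 (0.928), Tnfaip6 and Mmp2, and Timp3 to Uaca (0.923), Ston1 and Asap2. Among the members, Mmp2 and Timp2 were most alike (0.906), while Timp3 and Timp2 had 0.0956. The levels share 2 libraries and their depths, and the correlations are descriptions.

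The other genes of the system did not move as a block. In adventitial fibroblast-like cells 0 of the 8 other MMPs tested were called higher and 2 lower, 3 of 15 other ADAMTS genes were higher and 3 lower, 2 of 7 other inhibitors and clearance genes were higher and 1 lower, 0 of 9 activators were called, and 3 of 12 substrates were lower. Of all genes tested in that class, 9.88% were higher and 7.67% lower. Named by size, Adamts6 was 37.9 CPM in PBS and 170 CPM in CFA (4.49-fold), Serping1, the C1 inhibitor, was 1794 and 3592 CPM (2.003-fold), and Eln, which encodes the elastin that Mmp12 cuts, was 834 and 222 CPM (0.266). Elastin was lower in several stromal classes. It was 228 and 35.9 CPM in Prg4-led cells, 164 and 52.6 CPM in tenocyte-like cells, 311 and 8.23 CPM in chondrocyte-like cells and 1056 and 356 CPM in mural-like cells, but 210 and 610 CPM in arterial endothelial-like cells.

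In Prg4-led cells 5 of 13 other ADAMTS genes were lower (9.14% of all genes) and 1 higher (5.93%), Adamts6 at 65.0 and 258 CPM (3.97-fold). The substrate Comp, a cartilage and tendon matrix protein, was 625 and 1632 CPM there (2.61-fold), and 333 and 164 CPM (0.492) in tenocyte-like cells, so it too went in opposite directions. In sublining cells 4 of 12 substrates were lower (6.72% of all genes) and 0 higher (13.4%), in the class where the summed fibroblast markers were lower. The collagens Col1a1 (6448 and 2054 CPM, 0.319) and Col3a1 (10001 and 3421 CPM, 0.342) were among the lower substrates. In chondrocyte-like cells Adamts6 was 86.9 and 205 CPM (2.36-fold). Osteoblast-like cells had 5 of 15 other ADAMTS genes higher (10.4% of all genes) and 8 lower (8.08%), Adamts19 at 15.9 and 206 CPM among the former. They held the aggrecanase substrate Vcan at 269 and 1123 CPM (4.18-fold). In capillary endothelial-like cells Adamts9, a versican-cutting protease of endothelium, was 1075 and 403 CPM (0.375). Over all cells, where 10.4% of genes were higher and 11.8% lower, 7 of 13 other MMPs were called higher and 2 lower. Macrophage-like cells went from 0.750% to 7.70% of the cells, neutrophil-like cells from 2.66% to 8.74% and the Acp5/Dcstamp cluster from 0 to 6.83%, and their part in these counts was not tested. Plaur, the urokinase receptor, was 46.0 and 205 CPM (4.47-fold).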

How the data were processed

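Single-cell 3′ libraries of PBS- and CFA-injected TMJs, 1 per group, were analysed. The authors aligned the reads to mm10 with Cell Ranger 7.0.1 and deposited UMI counts per gene and barcode without normalization. The annotation release is not given in the sources used here. From these counts, Seurat 5.3.0 (sctransform 0.4.2, R 4.3.3) normalized each library with SCTransform and integrated both on up to 3000 genes, leaving out 67 member and list genes, and then clustered on 200 principal components at a resolution of 1.5. Of 34 clusters, 28 were named. A marker counted where at least 25% of a cluster's cells held it at 2-fold or more of the other cells of that library (10 CPM added to both), and a name needed 3 markers. The rule that leaves clusters led by gland genes unnamed, the name Prg4-led and the alternative without the top cell were added after seeing the data. Members and lists were chosen with earlier results of these data known. Members were described in every class. A list gene was named where each library had 10 UMIs of it, either had 100 CPM and the ratio passed 2-fold, up to 6 per class, and some list and marker genes are not reported here. With 1 library per group no test was run. Python 3.11.15 with scipy 1.17.1 gave exact Poisson, Clopper-Pearson and conditional binomial intervals. Scrublet (scanpy 1.11.5) called just 21 cells in PBS and 2 in CFA and was not relied on, so cells with the top 5% of its scores (115 and 194) were left out as an alternative. Naming, ratio and thinning steps were tested on simulated data. Timp1, Timp3, Adamts4 and Mmp12 overlap genes of the opposite strand, and Timp2 overlaps Cep295nl on its own strand.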

Additional observations from a re-analysis of the deposited data

Results flagged for a closer look

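Several members had CFA to PBS ratios past 2-fold in opposite directions in different classes, and with 1 library per condition these differences were not tested. Mmp3 was 20.2-fold in Prg4-led fibroblast-like cells (8.30 with 50 principal components) and 0.310-fold in tenocyte-like cells. Adamts5 was 2.24-fold in Prg4-led fibroblast-like cells and 0.335-fold in osteoblast-like cells, the latter turning to 1.26 with 50 principal components. Timp3 was 2.23-fold in endothelial-like cells of no named vessel type and 0.139-fold in neutrophil-like cells. The neutrophil-like value rests on 81 PBS and 46 CFA UMIs, in a class where Col1a1 was also lower, at 1955 and 137 CPM. Whether these molecules came from other cells was not tested. Barcodes over the hemoglobin limit, which were used only in the alternative without that limit, held Mmp12 at 41.4 CPM in the CFA library (163 UMIs in 339 barcodes), while the 3178 PBS barcodes over that limit held 0.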

How the results depend on the processing

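With 1 library per condition the intervals cover counting error and not the spread between animals, and depth limits every member with under 10 UMIs in a class. Of 730 values recomputed under 16 alternatives, 529 stayed within the counting interval of the reported value (counts of calls within 1.5 times), 197 moved beyond it, some of them across no difference, 4 that had passed 2-fold turned direction, and 162 could not be computed, most of them where another clustering did not give the class. No paired analysis was possible because each group has 1 library. Of 23 calls recomputed, those with at least 100 CPM or in a stromal class, 21 kept their direction and 7 their call wherever they could be computed. That was 6 to 12 alternatives per call. Resolution 0.8, the merge and cells classed singly did not give the tenocyte-like, Prg4-led or chondrocyte-like class, nor did 50 principal components give the tenocyte-like class. Calls of these classes were therefore not checked there. The 7 include Mmp12 in tenocyte-like cells, near the background level, and Timp3 in neutrophil-like cells. For the values below the cause was not tested.

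The calls over all classes were 35 higher and 17 lower, and the share over all genes in each class is given above. The higher calls include Mmp12 in every class except Prg4-led and satellite-like cells, where it had under 10 UMIs. Outside neutrophil-like cells these Mmp12 calls were at the levels read above as background. All calls together became 13 and 10 in the merge without integration and 19 and 10 with at least 50 UMIs. With cells classed singly by their markers 20 were higher, and at 1.5-fold 30 were lower. Without the hemoglobin limit, adventitial ratios were 3.61 for Mmp3, 0.881 (reversed) for Adamts4, 1.59 for Adamts5 and 1.19 for Timp2, and tenocyte-like ratios 1.70 for Mmp2, 2.003 for Mmp13, 1.70 for Mmp14 and 1.98 for Timp1. In the merge, adventitial ratios were 1.27 for Mmp3, 0.351 (reversed) for Adamts4, 1.75 for Adamts5 and 1.15 for Timp2, arterial Timp3 was 1.62 and mural Adamts4 1.37. With cells classed singly by their markers they were 3.34, 0.992 (reversed), 1.70 and 1.19, and arterial Timp3 was 1.35. At a resolution of 0.8, adventitial Adamts5 was 1.74 and Timp2 1.18. With 50 principal components osteoblast-like Adamts5 reversed to 1.26. Without the highest doublet scores mural Adamts4 was 1.35 and tenocyte-like Timp1 1.40. As a mean over cells, adventitial Mmp3 was 5.47 and Timp2 1.06, and tenocyte-like Mmp13 3.84, Mmp14 1.80 and Timp1 1.16. Without the top cell, adventitial Mmp3 was 5.03 and tenocyte-like Mmp13 3.01.

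The change in proteases per TIMP in adventitial cells was 1.29 without the hemoglobin limit, 1.35 at a resolution of 0.8, 1.54 with 50 principal components, 0.927 in the merge and 1.25 with cells classed singly. It was 1.18 in Prg4-led cells with 50 principal components and 1.61 in tenocyte-like cells without the hemoglobin limit. In chondrocyte-like cells it was 1.02 without that limit, 0.967 with at least 1000 genes and 1.20 without the highest doublet scores, and in osteoblast-like cells 0.852 with a mitochondrial limit of 20%, 1.24 with 50 principal components and 0.441 without those scores. In sublining cells it was 0.878, 0.841, 1.19, 0.900, 1.17 and 0.813 with the mitochondrial limit, 1000 genes, the resolution, 50 components, single-cell classes and without those scores. CFA minus PBS shares of cells were, in percentage points, 9.40 for Mmp12 in neutrophil-like cells without thinning (3.56 with it), 30.4 and 28.8 for Mmp13 in tenocyte-like cells with 2000 UMIs and without thinning (16.6), -6.94 for Timp1 there without thinning (2.47), and 7.60 and 1.59 for Timp3 in arterial cells with 2000 UMIs and without thinning (18.3).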
